A study of Drosophila melanogaster with 4 samples.

Results

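Long noncoding RNA (lncRNA) genes were examined in Drosophila melanogaster embryonic myoblasts, which fuse to form the muscles of the larva. The genes described are those whose name starts with lncRNA:CR, the prefix under which most fly lncRNA loci are listed, and whose raw counts sum to at least 500 over the 4 libraries of the study. This rule took 40 of 1898 lncRNA:CR genes, in a table of 17518 genes. It uses measured values, so the abundance of the 40 genes is a description and carries no test. The gene lncRNA:CRG matches the prefix by its letters, although its name holds no number, and it is among the 40.

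The libraries came from GFP-positive cells sorted by flow cytometry from stage 11 embryos of 2 lines, salm[340] and wild type (WT), with 2 libraries per line. salm encodes Spalt major, a zinc finger transcription factor, and salm[340] is a mutant allele of it carried by homozygous embryos; the labels do not state what the allele changes, nor which promoter drives the GFP. For both lines, embryos came from a 3 h egg lay at 25 °C followed by 7 h of ageing, and polyA RNA was sequenced. The series calls the replicates technical, so n counts libraries, and a p-value here reflects library-to-library spread alone.

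An lncRNA is a long transcript with no annotated protein product. Some lncRNA genes act through the RNA itself, as the fly roX RNAs do on the male X chromosome. Others are the primary transcripts from which a microRNA is cut, or carry small nucleolar RNAs (snoRNAs), the guides of ribosomal RNA modification, in their introns. Many lie inside or against a protein-coding gene. The counts used no strand, and a fragment that touched several genes was counted for each of them, so an lncRNA gene that shares exon bases with another gene cannot be told apart from it in these data. Each called gene below is therefore given with the listed genes whose exon bases it shares. Since polyA RNA was sequenced, counts on a microRNA or snoRNA gene are not taken as levels of the mature small RNA.

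Library totals ran from 15170218 to 15668621 counts in salm[340] and from 20530119 to 21857295 counts in WT. The mitochondrial share of these counts was 60.9% and 63.2% in salm[340], against 24.8% and 29.3% in WT. Levels are given in CPM, that is, counts divided by a library size that was scaled by TMM, a method that sets the bulk of genes equal between libraries. Dropping that scaling shifts the median gene by -1.19 (log2), so each difference below is relative to the bulk of genes. salm itself had 93.3 and 97.8 CPM in salm[340] and 25.7 and 24.8 CPM in WT (log2 fold change 1.92, SE 0.0926, edgeR adjusted p = 1.102e-06). Of 14 markers of myoblasts and somatic mesoderm none was at 0, and 8 were called higher and 1 lower (edgeR adjusted p under 0.05). Over all genes tested 17.2% were called. The summed level of these 14 markers was 1686 and 1804 CPM in salm[340] and 1422 and 1444 CPM in WT. Mef2, a transcription factor of muscle, had 262 and 290.4 CPM in salm[340] and 253.8 and 261.9 CPM in WT. The neuronal gene elav had 85.8 and 102.9 CPM in salm[340] and 86.9 and 95.2 CPM in WT, so fragments on this neural marker were counted in both lines. The gene lncRNA:enrr lies within the span of elav on the same strand, and how many fragments they share was not examined. The sum of 8 neural markers was 212 and 237 CPM in salm[340] and 216 and 224 CPM in WT, and 2 of them were called higher and 2 lower. Markers of fat body and oenocytes summed to 15.9 and 14.2 CPM in salm[340] and 45.5 and 41.2 CPM in WT, and markers of epidermis to 609 and 637 CPM in salm[340] and 497 and 504 CPM in WT. Both of the 2 tested markers of fat body and oenocytes were called lower. Of 5 epidermis markers 1 was called higher and 2 lower, although their sum was higher in salm[340]. The sums for hemocytes, trachea, gut, germ cells and tendon ran from 13.8 to 155 CPM in salm[340] and from 15.5 to 186 CPM in WT. Among these markers 1 of hemocytes and 1 of germ cells were called higher, and 1 of hemocytes and 1 of trachea lower. No marker of these lists was at 0 in all libraries, and their part in the lncRNA results was not tested.

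The 40 genes are 2.11% of the lncRNA:CR genes and hold 88.2% of the counts of that class. The median lncRNA:CR gene had a summed count of 1, and 842 of them had no count in any library. The genes just inside the threshold were lncRNA:CR45593, lncRNA:CR43234 and lncRNA:CR42767, with 527, 528 and 546 summed counts. Just outside it lay lncRNA:CR31781, lncRNA:CR44608 and lncRNA:CR44417, with 496, 492 and 488. The 40 genes summed to 33918 and 32368 counts in the salm[340] libraries and 92458 and 82398 in the WT libraries, so the rule weighs WT more. As a share of counts in nuclear genes the sums were alike, at 0.572% and 0.561% in salm[340] and 0.562% and 0.568% in WT.

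**Figure D1:**
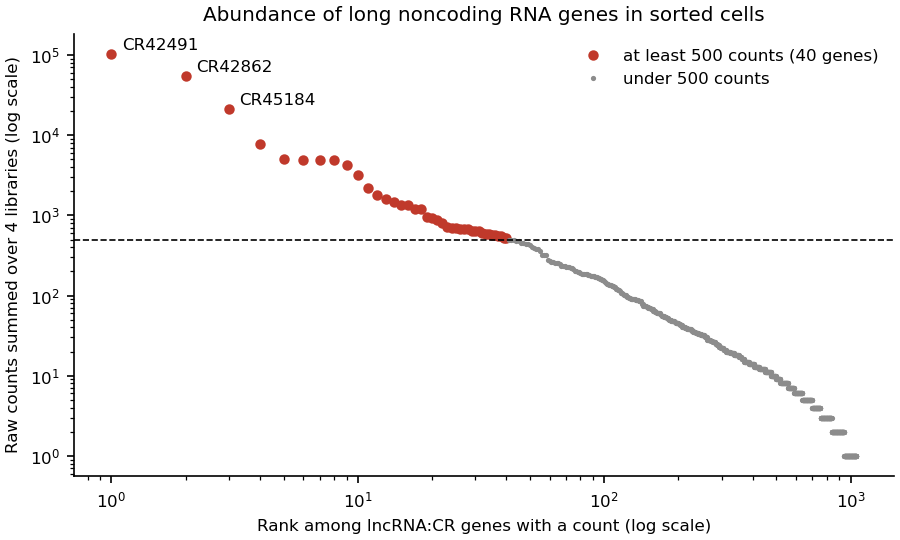
Raw counts of lncRNA:CR genes summed over the 4 libraries (y axis, log scale) against their rank among those with a count (x axis, log scale), with the 500-count threshold as a dashed line. The 40 genes at or above the line (red) drop steeply from lncRNA:CR42491, lncRNA:CR42862 and lncRNA:CR45184, which hold 74.4% of their counts.

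A single gene dominated the set. lncRNA:CR42491 (X, 762615 to 763810, minus strand, BDGP6) held 43% of the counts of the 40 genes, and with lncRNA:CR42862 and lncRNA:CR45184 it held 74.4%. Its level per exon length, in CPM per kilobase of exon (RPKM), averaged 1823 over the lines, while the median of the 40 genes was 8.19 and the lowest, lncRNA:CR46483, had 0.346. After lncRNA:CR42491 the highest mean RPKM values were 197.9 for lncRNA:CR34335, 136.1 for lncRNA:CR45566, 109.8 for lncRNA:CR42862, 95.4 for lncRNA:CR40469, 87.5 for lncRNA:CR45184, 71.0 for lncRNA:CR45197 and 45.1 for lncRNA:CR44898. Below these the levels were low: 18 of the 40 genes were under 10 CPM in both lines, and 5 were over 100 CPM in either line. The exon lengths ran from 214 to 18196 bases with a median of 1516, and 18 of the 40 genes have a single exon.

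Overlap with other genes was the common condition in the set. Exon bases were shared with another annotated feature in 28 of the 40 genes, on either strand, and 9 genes overlapped no listed gene even by span. Protein-coding genes were the partners of 22 genes, 15 of which share exon bases with a coding gene on the same strand and 9 with one on the opposite strand. In 5 genes a microRNA precursor lies on the same strand: lncRNA:CR43334 holds the bantam precursor, lncRNA:CR31044 those of mir-279 and mir-996, lncRNA:CR46006 that of mir-276a, lncRNA:CR46194 those of mir-281-1 and mir-281-2, and lncRNA:CR31451 overlaps that of mir-9381. A pair of genes carry snoRNA genes, namely lncRNA:CR42491 with snoRNA:Psi18S-531 and lncRNA:CR45184 with 5 snoRNA genes.

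The comparison asks which of these genes differed between salm[340] and WT myoblasts. All 40 passed the filter on low counts, and a difference was called at a Benjamini-Hochberg adjusted p under 0.05 in edgeR's quasi-likelihood test over 10738 genes. By this test 16 of the 40 genes were called, 10 higher and 6 lower in salm[340]. Over all genes tested 17.2% were called. Over those with at least 500 summed counts 24.3% were called, 14.3% higher and 10.1% lower. The CPM values of the lines did not overlap in 27 of the 40 genes, against 59.1% of all genes tested and 64.3% of those with at least 500 counts. Of the called lncRNA genes, 8 differed at least 2-fold, 6 higher and 2 lower. Among the 6498 genes tested with at least 500 counts, 183 were called at least 2-fold higher and 110 at least 2-fold lower. The median log2 fold change of the 40 genes was -0.035, against -0.012 over all genes tested and -0.017 over those with at least 500 counts. In bulk RNA, fewer cells of a type and less RNA per cell cannot be told apart.

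The calls rest on both WT libraries. Without WT replicate 1 none of the 40 genes was called by edgeR, and 14 of them had an unadjusted p under 0.05. Without WT replicate 2 none was called either, and 15 had an unadjusted p under 0.05. Over all genes 14 were called in each of these fits. All 16 called lncRNA genes kept their direction in both, in which the lone WT library was assumed to vary like the salm[340] pair. With library size alone in place of TMM, 2 of the 40 genes were called higher and 33 lower, and 6 of the 10 genes that rose had a log2 fold change below 0. Within a line the libraries were close, with a median ratio of the higher to the lower library of 1.12 in salm[340] and 1.13 in WT over the 40 genes.

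**Figure D2:**
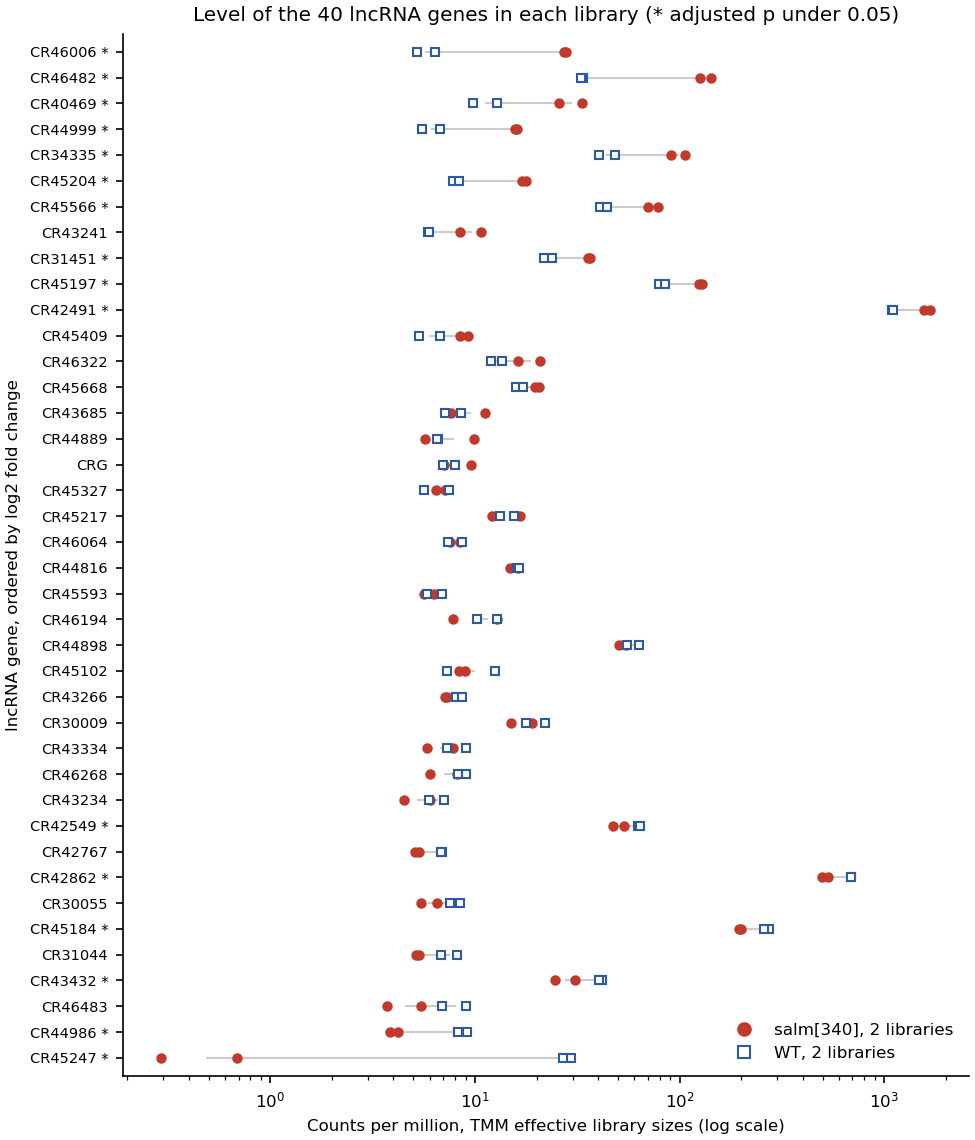
Level of each of the 40 lncRNA genes in CPM (x axis, log scale) in the 2 salm[340] libraries (red circles) and the 2 WT libraries (blue squares), with a grey line between the means and genes ordered by log2 fold change. In 27 genes the lines do not overlap, a condition met by 64.3% of all genes with at least 500 counts, and an asterisk marks the 16 that were called.

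Rises of at least 2-fold were measured in 6 genes: lncRNA:CR46006, lncRNA:CR46482, lncRNA:CR40469, lncRNA:CR44999, lncRNA:CR34335 and lncRNA:CR45204. The largest rise was in lncRNA:CR46006 (3L, 10323501 to 10367450, plus strand), a 5-exon gene that holds mir-276a, a microRNA conserved in insects. It had 27.8 and 27.4 CPM in salm[340] and 5.19 and 6.36 CPM in WT (log2 fold change 2.26, SE 0.168, edgeR adjusted p = 2.678e-05). The salm[340] libraries lay above both WT libraries. The raw counts of lncRNA:CR46006 were 284 and 278 in salm[340] and 176 and 192 in WT. Its salm[340] libraries alone passed the count threshold and its WT libraries alone did not. Its place in the set thus leaned on the line in which it was high. The mir-276a precursor within it had 67 and 50 counts in salm[340] and 44 and 4 counts in WT (log2 fold change 2.97, SE 0.715, edgeR adjusted p = 0.01936). All bases of the precursor lie in an exon of lncRNA:CR46006, so fragments on it were counted for that gene as well. Its counts are no separate measure of the microRNA. The precursor takes 0.957% of the exon bases of lncRNA:CR46006, and its WT libraries stood far apart. Without WT replicate 1 its log2 fold change was 5.35 (edgeR adjusted p = 0.2182), and without WT replicate 2 it was 2.13 (edgeR adjusted p = 0.2959).

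lncRNA:CR46482 (3L, 27821333 to 27881412, minus strand) shares no exon base with another feature, although the translation initiation factor gene eIF4B lies within its intron on the same strand. Its level was 125.2 and 142.4 CPM in salm[340] and 33.9 and 33.0 CPM in WT (log2 fold change 2.00, SE 0.0953, edgeR adjusted p = 1.022e-06). eIF4B had 152.9 and 153.8 CPM in salm[340] and 143.2 and 138 CPM in WT and was not called (log2 fold change 0.13, edgeR adjusted p = 0.296). The lncRNA gene was thus called while the coding gene inside it was not, and the difference between the pair was not tested.

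lncRNA:CR40469 (X, 122493 to 122706, plus strand) is the shortest of the 40 genes and overlaps no listed gene. In salm[340] it had 33.3 and 25.7 CPM, and in WT 12.8 and 9.84 CPM (log2 fold change 1.38, SE 0.180, edgeR adjusted p = 0.0007604). lncRNA:CR34335 (X, 3545750 to 3546110, minus strand) is a single exon inside an intron of DIP-alpha, which encodes a cell surface protein of the immunoglobulin family. It had 106.4 and 90.8 CPM in salm[340] and 48.2 and 40.3 CPM in WT (log2 fold change 1.15, SE 0.116, edgeR adjusted p = 0.0001515). DIP-alpha itself was low, at 3.62 and 4.23 CPM in salm[340] and 3.18 and 2.09 CPM in WT, and was not called (log2 fold change 0.57, edgeR adjusted p = 0.3413). In these genes both salm[340] libraries were above both WT libraries.

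lncRNA:CR44999 (X, 3373159 to 3522787, plus strand) shares 91.8% of its exon bases with Myc, the transcription factor that drives cell growth, and its long span overlaps 14 listed genes in all. It had 15.7 and 16.0 CPM in salm[340] and 5.54 and 6.76 CPM in WT (log2 fold change 1.37, SE 0.198, edgeR adjusted p = 0.001349). Myc had 225 and 213.9 CPM in salm[340] and 68.6 and 75.9 CPM in WT (log2 fold change 1.60, SE 0.0842, edgeR adjusted p = 2.092e-06). Once the lncRNA counts were taken out of those of Myc, the rest of Myc gave 1.62 (edgeR adjusted p = 2.004e-06). The nearest coding gene outside the span, dnc, which encodes a cAMP phosphodiesterase, was also higher in salm[340], with a log2 fold change of 1.15 (edgeR adjusted p = 0.0006344).

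Rises under 2-fold were measured in lncRNA:CR45566, lncRNA:CR31451, lncRNA:CR42491 and lncRNA:CR45197. lncRNA:CR45566 (3R, 27924879 to 27925368, minus strand) lies between the ribosomal protein gene RpL4 and mino, a gene of glycerolipid synthesis, and shares 29.8% of its exon bases with them on the opposite strand. It had 70.5 and 78.6 CPM in salm[340] and 41.0 and 44.0 CPM in WT (log2 fold change 0.81, SE 0.0984, edgeR adjusted p = 0.0004848). RpL4 rose less, with 3893 and 4121 CPM in salm[340] and 3395 and 3359 CPM in WT (log2 fold change 0.25, edgeR adjusted p = 0.02397), and mino was not called (log2 fold change -0.16, edgeR adjusted p = 0.6501). Only 10 bases of the lncRNA gene are shared with RpL4, and 118 with mino.

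lncRNA:CR31451 (3R, 23983503 to 23985065, plus strand), listed as lncRNA:mimi in a later Ensembl release, had 36.7 and 35.5 CPM in salm[340] and 21.7 and 23.9 CPM in WT (log2 fold change 0.66, SE 0.117, edgeR adjusted p = 0.004025). The mir-9381 precursor at its start had 26 and 39 counts in salm[340] and 84 and 88 counts in WT. Scaled, these were 2.54 and 3.84 CPM in salm[340] and 2.48 and 2.92 CPM in WT, and it was not called (log2 fold change 0.24, edgeR adjusted p = 0.7139). lncRNA:CR42491 had 1680 and 1566 CPM in salm[340] and 1097 and 1102 CPM in WT (log2 fold change 0.56, SE 0.0678, edgeR adjusted p = 0.0004676). It lies within RpL22, a ribosomal protein gene of the same strand with which it shares 50.5% of its exon bases, and RpL22 had 2627 and 2501 CPM in salm[340] and 1996 and 1939 CPM in WT (log2 fold change 0.38, edgeR adjusted p = 0.003093). Its snoRNA, snoRNA:Psi18S-531, was not called (log2 fold change 0.26, edgeR adjusted p = 0.2683).

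lncRNA:CR42491 held a large part of the summed level of the set. The 40 genes summed to 3316 and 3185 CPM in salm[340] and 2725 and 2731 CPM in WT. Without lncRNA:CR42491 the sums were 1636 and 1619 CPM in salm[340] and 1628 and 1628 CPM in WT. On the TMM scale the summed level of the other genes was thus close in the 2 lines. As a share of counts in nuclear genes it was instead the sums of all 40 genes that were alike, as given above. Of those sums lncRNA:CR42491 held 50.7% and 49.2% in salm[340] and 40.3% and 40.4% in WT. On that scale the other genes therefore summed to less in salm[340], so the 2 scales differ.

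The largest fall was in lncRNA:CR45247 (3L, 10816581 to 10817182, plus strand), a single-exon gene of 602 bases that overlaps no listed gene. It had 3 and 7 counts in salm[340] and 999 and 809 counts in WT. Scaled, these were 0.293 and 0.689 CPM in salm[340] and 29.4 and 26.8 CPM in WT (log2 fold change -5.82, SE 0.288, edgeR adjusted p = 1.278e-06). The gene was nearly undetected in both salm[340] libraries and reached the 500-count threshold through WT alone. Its upstream neighbour on the same strand, CG42831 (3L, 10814819 to 10816084), ends 497 bases before it and fell by a like amount. CG42831 had 6 and 0 counts in salm[340] and 558 and 482 counts in WT (log2 fold change -5.76, SE 0.495, edgeR adjusted p = 5.452e-05). Its fitted fold change rested on the 6 counts of 1 library: it was -11.65 without salm[340] replicate 1, which leaves a library at 0, and -4.79 without salm[340] replicate 2. No gene name or role beyond these identifiers is given for either in the files.

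**Figure D3:**
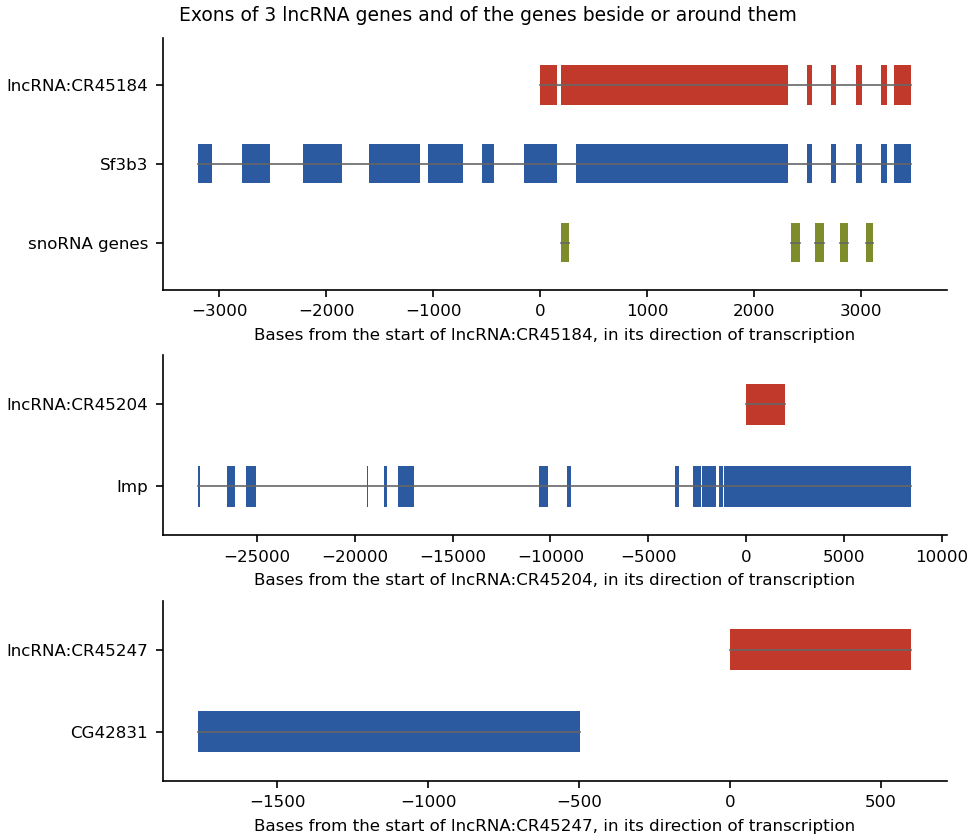
Exons of lncRNA:CR45184 with Sf3b3 and its snoRNA genes, of lncRNA:CR45204 with Imp, and of lncRNA:CR45247 with CG42831, drawn in the direction of transcription (x axis, bases from the start of each lncRNA gene). lncRNA:CR45184 and lncRNA:CR45204 (red) lie over exons of the coding gene (blue), while lncRNA:CR45247 starts 497 bases after the end of CG42831.

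A second fall of at least 2-fold was in lncRNA:CR44986 (2L, 5947647 to 5948397, minus strand), which lies antisense to Gpdh1, the glycerol-3-phosphate dehydrogenase gene, and shares 100% of its exon bases with it. It had 4.20 and 3.84 CPM in salm[340] and 8.31 and 9.11 CPM in WT (log2 fold change -1.11, SE 0.248, edgeR adjusted p = 0.01336). Its raw counts were 43 and 39 in salm[340] and 282 and 275 in WT. Its WT libraries alone passed the count threshold, so its place in the set leaned on the line in which it was high. Gpdh1 fell as well, to 15.5 and 13.4 CPM in salm[340] against 20.2 and 21.9 CPM in WT (log2 fold change -0.54, SE 0.151, edgeR adjusted p = 0.03587). That call did not hold with DESeq2 (adjusted p = 0.09868). CG9044, whose start is 1053 bases from that of the lncRNA gene on the opposite strand, was higher in salm[340], with 37.1 and 39.3 CPM against 20.0 and 23.3 CPM in WT (log2 fold change 0.82, edgeR adjusted p = 0.001736).

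lncRNA:CR43432 (3L, 14976626 to 14977631, minus strand), now listed as lncRNA:marge, shares no exon base with another gene. Its level was 24.7 and 30.8 CPM in salm[340] and 41.6 and 40.4 CPM in WT (log2 fold change -0.56, SE 0.126, edgeR adjusted p = 0.01368). Its nearest coding gene, Ocho, a member of the Bearded family of Notch pathway regulators, lies 586 bases away on the opposite strand. Ocho had 31.3 and 30.6 CPM in salm[340] and 48.1 and 43.5 CPM in WT (log2 fold change -0.56, SE 0.108, edgeR adjusted p = 0.006189). The pair were lower in both salm[340] libraries than in either WT library.

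The remaining falls were under 2-fold and came from the more abundant genes. lncRNA:CR45184 (3L, 826720 to 830190, minus strand), which shares 94.7% of its exon bases with Sf3b3 on the same strand, had 196 and 199.7 CPM in salm[340] and 274.2 and 257.3 CPM in WT (log2 fold change -0.43, SE 0.0744, edgeR adjusted p = 0.003867). lncRNA:CR42862 (3L, 224106 to 230964, plus strand) had 534.4 and 499.2 CPM in salm[340] and 689.4 and 685.3 CPM in WT (log2 fold change -0.41, SE 0.0707, edgeR adjusted p = 0.003514). It shares 4.48% of its exon bases with CG33229, which was not called (log2 fold change -0.01, edgeR adjusted p = 0.9565). lncRNA:CR42549 (3R, 9548104 to 9551806, minus strand) had 47.2 and 53.4 CPM in salm[340] and 62.7 and 64.4 CPM in WT (log2 fold change -0.34, SE 0.0982, edgeR adjusted p = 0.04314), and its call did not hold with DESeq2 (adjusted p = 0.08854). It lies within mura, a ubiquitin ligase gene with which it shares 4.93% of its exon bases, and mura had a log2 fold change of 0.32 (edgeR adjusted p = 0.05059). mura was called higher without salm[340] replicate 1 (log2 fold change 0.37, edgeR adjusted p = 0.000971), without salm[340] replicate 2 (log2 fold change 0.25, edgeR adjusted p = 0.03819) and with the replicate number as a block (log2 fold change 0.32, edgeR adjusted p = 0.02771).

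Calls were found among genes with and without shared exon bases, and the counts per class are small and stand beside the 24.3% called among all genes with at least 500 counts. Of the 12 genes that share none, 3 were higher and 2 lower in salm[340], and of the 3 that share only a microRNA precursor, 2 were higher. Among the 5 genes with under 10% shared bases, 2 were lower, and among the 13 with 10% to 90%, 2 (15.4%) were higher. Of the 7 with at least 90%, 3 were higher and 2 lower. The 5 called genes without shared exon bases were lncRNA:CR46482, lncRNA:CR40469, lncRNA:CR34335, lncRNA:CR43432 and lncRNA:CR45247, the first 3 of them higher and the last 2 lower. A fragment that maps to several places was counted at each of them. Genes without shared exon bases can therefore still hold fragments from similar sequence elsewhere, and this was not examined.

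**Figure D4:**
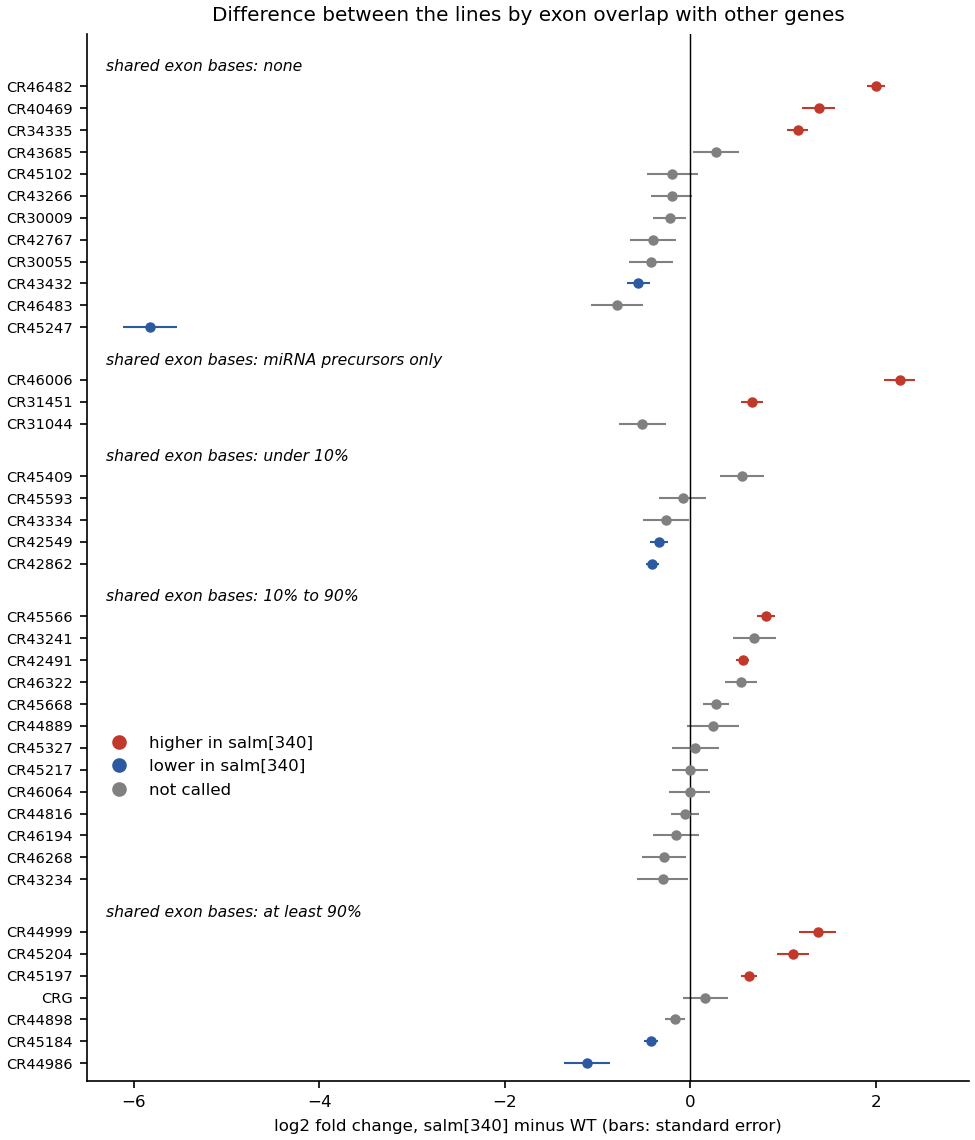
Log2 fold change (x axis, salm[340] minus WT on TMM library sizes, bars for the standard error) of the 40 lncRNA genes, grouped by the share of their exon bases that lies in exons of other features. Called rises (red) and falls (blue) occur both without shared bases and with at least 90% shared, and with library size alone 6 of the 10 rises fall below 0.

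For 7 genes at least 90% of the exon bases lie on exons of 1 coding gene, so that a fragment there was counted for both. The counts of the lncRNA gene are given as a share of those of the coding gene, which does not depend on library scaling, with a 95% Wilson interval that covers counting error only. In lncRNA:CR44986, lncRNA:CR45197, lncRNA:CR45204 and lncRNA:CRG all exon bases lie on the coding gene. Outside it lie 3 bases of lncRNA:CR44898, 141 bases of lncRNA:CR45184 (5.32%) and 166 bases of lncRNA:CR44999 (8.2%). A fragment on those bases alone is not among the counts of the coding gene, so for these genes the share is an upper value and the rest of the coding gene a lower one. With 2 libraries against 2 an exact permutation test cannot give a p below 0.333, so these shares are compared by their intervals and carry no test.

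In Imp, an RNA-binding protein gene, the 1955 bases of lncRNA:CR45204 (X, 10794338 to 10796292, minus strand) took 15.7% (13.7% to 18%) and 16% (13.9% to 18.2%) of the counts in salm[340]. In WT they took 7.62% (6.78% to 8.55%) and 7.73% (6.86% to 8.69%). The share was higher in both salm[340] libraries, with intervals that do not touch those of WT. lncRNA:CR45204 was called (17.01 and 17.71 CPM in salm[340] against 7.81 and 8.35 CPM in WT, log2 fold change 1.10, SE 0.172, edgeR adjusted p = 0.002076). Imp was not, with 108.1 and 110.9 CPM in salm[340] and 102.6 and 108.1 CPM in WT (log2 fold change 0.06, edgeR adjusted p = 0.6828), and the rest of Imp without those counts had a log2 fold change of -0.08 (edgeR adjusted p = 0.5719). The stretch lies within the last exon of Imp, and the difference between this stretch and the rest of the gene was not tested beyond the intervals above.

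Sf3b3, a subunit of the splicing factor SF3b, showed the opposite pattern. The counts of lncRNA:CR45184 came to 76.6% (74.9% to 78.2%) and 76.3% (74.7% to 77.9%) of the Sf3b3 counts in salm[340], and 86.8% (86.1% to 87.4%) and 86.4% (85.7% to 87.1%) in WT. Scaled to the shared bases at even coverage, they came to 72.5% and 72.3% in salm[340] and 82.1% and 81.8% in WT. The shared bases are 57.9% of the exon bases of Sf3b3. Sf3b3 as counted was lower in salm[340] (255.9 and 261.6 CPM against 316.1 and 297.8 CPM in WT, log2 fold change -0.25, SE 0.0732, edgeR adjusted p = 0.04545). With all counts of the lncRNA gene taken out, the rest of Sf3b3 had 613 and 629 counts in salm[340] and 1419 and 1222 in WT and was higher in salm[340] (log2 fold change 0.57, SE 0.0931, edgeR adjusted p = 0.002787). With only the part scaled to the shared bases taken out, the difference was smaller and in the same direction (log2 fold change 0.37, SE 0.0883, edgeR adjusted p = 0.01879). The direction for Sf3b3 thus depended on whether the shared stretch was included, and the size depended on how many of the counts lie outside Sf3b3, which the files do not record. Of the 141 bases outside Sf3b3, 71 are those of snoRNA:Me5.8S-G74, which was at 0 in all 4 libraries. The other snoRNA genes in lncRNA:CR45184 had between 0 and 29 counts per library. Of these only snoRNA:Me28S-C788b was called, lower in salm[340] (log2 fold change -6.855, SE 1.98, edgeR adjusted p = 0.04557). It had 0 counts in both salm[340] libraries and 17 and 26 counts in WT, so the size of its fold change is poorly fixed.

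The share of sgg, the fly glycogen synthase kinase 3 gene, in lncRNA:CR45197 (X, 2675188 to 2676657, plus strand) was 62.8% (60.7% to 64.9%) and 59% (57% to 61.1%) in salm[340] and 56.5% (55.1% to 57.9%) and 56.4% (55% to 57.8%) in WT. lncRNA:CR45197 had 124.4 and 129.4 CPM in salm[340] and 78.9 and 84.9 CPM in WT (log2 fold change 0.63, SE 0.0831, edgeR adjusted p = 0.0007939). The rest of sgg had a log2 fold change of 0.37 (edgeR adjusted p = 0.04339), against 0.52 for sgg as counted (edgeR adjusted p = 0.002233). Most of the sgg counts came from this 1470-base stretch in both lines, and 1 of the salm[340] intervals overlapped those of WT.

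In Gpdh1 the share of lncRNA:CR44986 was 27% (20.7% to 34.4%) and 28.7% (21.7% to 36.8%) in salm[340] and 41.1% (37.5% to 44.8%) and 41.5% (37.8% to 45.3%) in WT. The rest of Gpdh1 was not called (log2 fold change -0.24, edgeR adjusted p = 0.4186). In Myc the share of lncRNA:CR44999 was 6.99% and 7.5% in salm[340] and 8.08% and 8.91% in WT, with overlapping intervals. In robo2, a receptor of the guidance cue Slit, the share of lncRNA:CR44898 (2L, 1380083 to 1381326, minus strand) was 44.9% (42.1% to 47.8%) and 40.2% (37.7% to 42.8%) in salm[340] and 49% (47.4% to 50.6%) and 50.2% (48.6% to 51.8%) in WT. One of the salm[340] intervals overlapped that of 1 WT library. Neither lncRNA:CR44898 (50.8 and 54.9 CPM in salm[340] against 55.3 and 63.3 CPM in WT) nor robo2 was called. Without salm[340] replicate 2 lncRNA:CR44898 was called lower (log2 fold change -0.23, edgeR adjusted p = 0.04242), and without salm[340] replicate 1 robo2 was called higher (log2 fold change 0.18, edgeR adjusted p = 0.03019). In CASK, a scaffold protein gene, the share of lncRNA:CRG was 44.1% and 35.5% in salm[340] and 44.1% and 43.9% in WT, with intervals that overlapped, and neither gene was called.

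**Figure D5:**
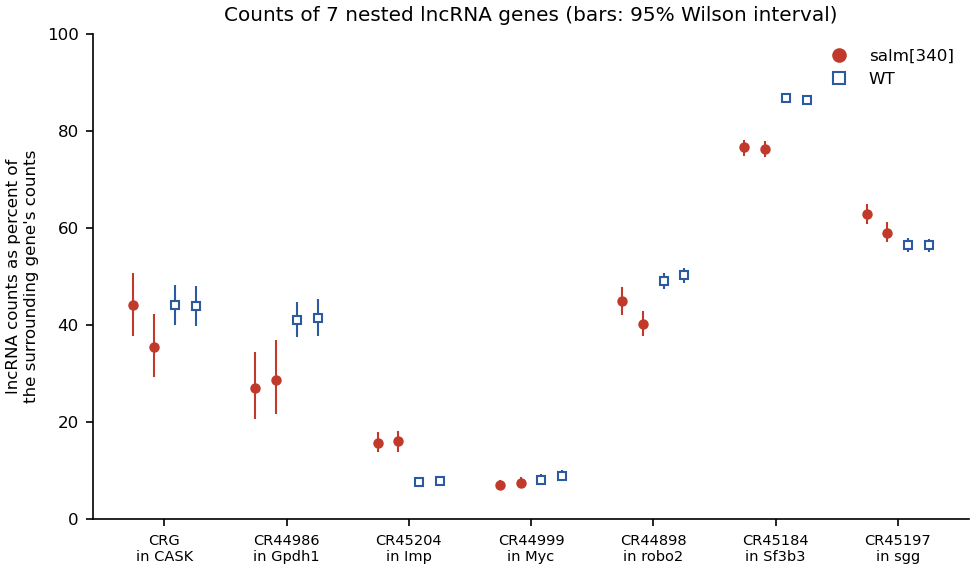
Counts of 7 nested lncRNA genes as a percentage of the counts of the coding gene around them (y axis), in the 2 salm[340] libraries (red circles) and the 2 WT libraries (blue squares) with 95% Wilson intervals. The shares stand apart between the lines for lncRNA:CR45204 in Imp (higher in salm[340]) and lncRNA:CR45184 in Sf3b3 and lncRNA:CR44986 in Gpdh1 (lower in salm[340]).

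The other 24 genes were not called, with log2 fold changes from -0.79 for lncRNA:CR46483 to 0.69 for lncRNA:CR43241. In 11 of them the lines did not overlap. lncRNA:CR43241, which shares 42.4% of its exon bases with CG42748 and 28.5% with a transposon insertion, had 10.7 and 8.46 CPM in salm[340] and 5.93 and 5.93 CPM in WT (edgeR adjusted p = 0.07158). CG42748 was called higher, with 124.2 and 138.9 CPM in salm[340] and 94.2 and 95.6 CPM in WT (log2 fold change 0.47, edgeR adjusted p = 0.004664). lncRNA:CR46322 shares 34.2% of its exon bases, all of them with each of the nuclear receptor gene Hr3, CG46321 and CG12912. It had 16.3 and 20.8 CPM in salm[340] and 13.5 and 11.9 CPM in WT (edgeR adjusted p = 0.06001). Of these partners Hr3 (log2 fold change 0.31, edgeR adjusted p = 0.02541) and CG46321 (log2 fold change 0.31, edgeR adjusted p = 0.02656) were called higher, and CG12912 was not called (log2 fold change 0.10, edgeR adjusted p = 0.4913) unless salm[340] replicate 1 was left out (log2 fold change 0.17, edgeR adjusted p = 0.03738). lncRNA:CR46483, which overlaps no exon of another gene, had 5.47 and 3.74 CPM in salm[340] and 9.02 and 6.93 CPM in WT (edgeR adjusted p = 0.0879). The standard errors of these 3 genes ran from 0.174 to 0.285.

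Of the genes that hold microRNA precursors and were not called, lncRNA:CR43334, the transcript of the growth-promoting microRNA bantam, had 7.82 and 5.81 CPM in salm[340] and 9.05 and 7.33 CPM in WT (log2 fold change -0.27, edgeR adjusted p = 0.5215). lncRNA:CR31044 had 5.18 and 5.31 CPM in salm[340] and 8.20 and 6.83 CPM in WT (log2 fold change -0.52, edgeR adjusted p = 0.1919). lncRNA:CR46194, listed in a later release as an antisense RNA, shares 16.8% of its exon bases with Oda and 13% with SmD3, neither of which was called. It had 12.8 and 7.77 CPM in salm[340] and 10.3 and 12.8 CPM in WT (log2 fold change -0.16, edgeR adjusted p = 0.7099). The lines overlapped in the first and last of these and not in lncRNA:CR31044. The bantam precursor was at 0 in all 4 libraries, which is a count of fragments on its bases and not a measure of the microRNA.

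The X chromosome held 11 of the 40 lncRNA genes (27.5%), against 12.2% of all lncRNA:CR genes, a class in which most genes had few counts. Among the 6498 genes of any type tested with at least 500 counts, 1115 were X-linked. Of the 11 lncRNA genes, 6 were called higher in salm[340] by edgeR and the other 5 were not called. Among all X-linked genes with at least 500 counts 20.6% were called, 13.3% higher and 7.35% lower. The pattern was noticed after the values were seen and was not tested, and with library size alone 4 of the 6 had a log2 fold change below 0. The 6 genes were lncRNA:CR40469, lncRNA:CR44999, lncRNA:CR34335, lncRNA:CR45204, lncRNA:CR45197 and lncRNA:CR42491, and 2 of them, lncRNA:CR40469 and lncRNA:CR34335, share no exon bases with another feature. The other 4 share exon bases with Myc, Imp, sgg and RpL22, of which Myc, sgg and RpL22 were called higher.

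The nearest coding gene outside each lncRNA gene lay from 7 to 85832 bases away, and it was tested for 36 of the 40. Of these neighbours 8 (22.2%) were called, 3 higher and 5 lower in salm[340], a share between the 17.2% of all genes tested and the 24.3% of those with at least 500 counts. Across these 36 pairs the log2 fold changes had a Pearson correlation of 0.757 and a Spearman correlation of 0.16, as a description over genes of the same 4 libraries. Without lncRNA:CR45247 and CG42831 the values were 0.0576 and 0.0863 over 35 pairs, so the Pearson value rested on that pair. Of the 13 called lncRNA genes with a tested neighbour, 4 had a called neighbour, in the same direction in 3 of them. A neighbour could also differ beside an lncRNA gene that was not called: Mnt, a transcriptional repressor that partners Max, was higher in salm[340] (log2 fold change 1.08, edgeR adjusted p = 0.003732) 185 bases from lncRNA:CR45102 (log2 fold change -0.19, edgeR adjusted p = 0.6819).

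Calls were also found among noncoding genes outside the set. Of the 1858 lncRNA:CR genes under 500 counts, 196 passed the filter on low counts, and 11 were higher and 9 lower in salm[340] (10.2%). Of 349 tested antisense RNA genes, 25 were higher and 7 lower (9.17%). Over all genes tested 1847 of 10738 (17.2%) were called, and 1582 of these calls came from the 6498 genes with at least 500 counts. The 17.2% is thus not a like measure for genes under 500 counts, and no rank against it is drawn. Of 33 other lncRNA genes 13 were tested, and 2 were higher and 1 lower. The higher ones were lncRNA:flam, the locus of a piRNA cluster, with 172.4 and 221.4 CPM in salm[340] and 100.2 and 123.9 CPM in WT (log2 fold change 0.81, SE 0.130, edgeR adjusted p = 0.002381), and lncRNA:alphagamma-element:CR32865 (log2 fold change 0.65, SE 0.0828, edgeR adjusted p = 0.0006389). The lower one was lncRNA:SMRG (log2 fold change -0.61, SE 0.113, edgeR adjusted p = 0.005262).

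The best known fly lncRNAs were not called. lncRNA:roX1, an RNA of the male dosage compensation complex, had 224.3 and 273.9 CPM in salm[340] and 250.4 and 261.5 CPM in WT (log2 fold change -0.04, edgeR adjusted p = 0.8273). Its partner lncRNA:roX2 had 8.70 and 3.25 CPM in salm[340] and 5.13 and 6.33 CPM in WT (log2 fold change 0.06, edgeR adjusted p = 0.9357). The lines overlapped in both. Without salm[340] replicate 2 lncRNA:roX1 was called lower (log2 fold change -0.20, edgeR adjusted p = 0.007093), and without salm[340] replicate 1 lncRNA:roX2 was (log2 fold change -0.83, edgeR adjusted p = 0.03119). The heat shock RNA lncRNA:Hsromega had 182.2 and 177.3 CPM in salm[340] and 177 and 180.9 CPM in WT (log2 fold change 0.01, edgeR adjusted p = 0.9636). lncRNA:bxd, lncRNA:iab4 and lncRNA:iab8 of the bithorax complex had log2 fold changes of 0.49, -0.47 and 0.39, and lncRNA:let7C, the host of let-7, had -0.07, and none was called. lncRNA:iab8 was called higher without salm[340] replicate 2 (log2 fold change 0.65, edgeR adjusted p = 0.01266). lncRNA:cherub, at 1.86 and 1.38 CPM in salm[340] and 1.12 and 1.13 CPM in WT, was not called either (log2 fold change 0.52, edgeR adjusted p = 0.5738).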

How the data were processed

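The deposited values are raw counts of fragments per gene. The authors made them with featureCounts 2.0.1 and an Ensembl annotation (BDGP6.32, release 104), per the file headers. The recorded options count a fragment for each place it maps to and each feature it touches, ask for at least 10 overlapping bases and set no strand. cutadapt 2.4, STAR 2.5.4b and build BDGP6 are named in the submitters' processing notes. Library totals are given above by line, and the spread between 2 libraries per line limits the precision more than depth does for abundant genes.

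Groups came from the sample titles and genotype labels. All listed genes of the 4 libraries entered 1 fit of salm[340] against WT (edgeR 4.0.16 under R 4.3.3, with TMM, filterByExpr, glmQLFit and glmQLFTest) without a replicate block, with Benjamini-Hochberg adjustment over 10738 genes. Standard errors were derived from F, as the size of the log2 fold change over the root of F. CPM and RPKM use TMM effective library sizes and summed exon lengths. Exon overlap on either strand was computed from the exon coordinates in the count files. The fit was also run on counts simulated from its own dispersion estimates, with fewer genes changed than were called here. That run cannot vouch for the calls in these data. Replicates of a line differed by more than counting noise, with a chi-square per degree of freedom of 7.36 in salm[340] and 4.15 in WT over nuclear genes.

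The genes, gene lists and comparisons were chosen with earlier results of these data known. Named were up to 12 called rises and 12 called falls with lines that do not overlap, the 8 genes with the highest RPKM, the 3 genes on each side of the threshold, their overlapping or nearest coding genes, and a fixed list of known lncRNA genes. Other names, including uncalled genes, Mnt and lncRNA:flam, were chosen after their values were seen. Alternatives were DESeq2 1.42.0, other scalings, no filter on low counts, other count thresholds, the replicate number as a block, leaving out each library and taking out nested counts, all or in proportion to shared exon bases (chosen after seeing the data). Positions are those of the deposited table. An Ensembl annotation of release 115, in which 17424 of the 17518 genes have the same position, gave only later names. Features outside the deposited gene table were left out of the test.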

Additional observations from a re-analysis of the deposited data

Results flagged for a closer look

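Within the 40 lncRNA genes lie 26 features outside the deposited gene table, and 15 of them had at least 10 counts over the 4 libraries. In 4 of these both salm[340] libraries were above both WT libraries, in 5 they were below, and in 6 the lines overlapped. Among all genes tested the lines did not overlap in 59.1%, so such a separation is common in these data. The 26 features entered no test, and multi-mapping fragments were counted for every copy, so the counts of a transposon insertion cannot be assigned to its site. The roo{}37 insertion in an intron of lncRNA:CR44999 averaged 690 CPM in salm[340] and 156 CPM in WT, while lncRNA:CR44999 itself, which shares no exon base with it, averaged 15.9 CPM in salm[340] and 6.15 CPM in WT. The 3S18{}35 insertion in the span of the same gene went the other way, with 36.7 and 39.4 CPM in salm[340] and 49 and 48.6 CPM in WT. The INE-1{}6123 insertion, which shares exon bases with lncRNA:CR43241, averaged 5.29 CPM in salm[340] and 3.4 CPM in WT. At the 2 mature microRNA features of mir-276a in lncRNA:CR46006, fragment counts were higher in salm[340]. There mir-276a-RA had 3.09 CPM against 0.446 CPM in WT, and mir-276a-RB had 2.79 CPM against 0.431 CPM in WT. All their bases lie in an exon of lncRNA:CR46006, so these counts are no separate measure of the microRNA. These 2 features hold 27 to 34 counts per library in salm[340], and 27 or 28 counts in one WT library and 2 in the other.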

How the results depend on the processing

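The count of 16 called lncRNA genes was 15 with DESeq2, 16 with DESeq2 size factors or without mitochondrial genes in TMM, 18 with no filter and 17 with the replicate block (11 higher, 6 lower). Over single-library omissions it ran from 0 to 21, from 0 to 13 for rises, 0 to 8 for falls and 0 to 6 for genes without shared exon bases. The omissions gave 0 to 50 lncRNA:CR genes under 500 counts, 0 to 94 antisense genes, 0 to 6 other lncRNA genes, and a median log2 fold change of -0.128 to 0.102. The 0 came without either WT library. The adjusted p of the called genes was then 0.114 to 0.47 without WT replicate 1 and 0.0817 to 0.503 without WT replicate 2.

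With library size alone the calls were 35 (2 higher, 33 lower), 10 without shared exon bases, 10 other lncRNA genes, 223 antisense and 77 under 500 counts, and the median was -1.225. There the log2 fold change turned negative for lncRNA:CR31451 (-0.529), lncRNA:CR34335 (-0.039), lncRNA:CR42491 (-0.63), lncRNA:CR45197 (-0.56), lncRNA:CR45204 (-0.088), lncRNA:CR45566 (-0.381), CASK (-0.89), CG9044 (-0.371), CG12912 (-1.097), CG42748 (-0.723), CG46321 (-0.886), Hr3 (-0.885), DIP-alpha (-0.628), Imp (-1.135), Mnt (-0.11), RpL22 (-0.81), RpL4 (-0.947), mura (-0.868), robo2 (-1.128), sgg (-0.669), lncRNA:Hsromega (-1.185), lncRNA:alphagamma-element:CR32865 (-0.54), lncRNA:bxd (-0.702), lncRNA:cherub (-0.66), lncRNA:flam (-0.378), lncRNA:iab8 (-0.791) and lncRNA:roX2 (-1.117). The median gene moves by -1.19 by the construction of that scaling.

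A threshold of 250 counts gave 25 called genes, 16 of them higher, and one of 1000 counts a median of 0.136. Genes with under 10% shared exon bases gave 9 calls, and those overlapping no listed gene by span gave 3. Under 500 counts, 31 lncRNA:CR genes were called with no filter and 13 with DESeq2. Near 0, lncRNA:Hsromega turned to -0.029 with no filter and -0.006 with DESeq2, and lncRNA:roX2 to -0.036 with the replicate block. With nested counts taken out, Sf3b3 turned to 0.565 (0.369 with the part scaled to shared bases) and Imp to -0.078. Single-library omissions changed the sign of CG12912 (-0.003 to 0.167), CG33229 (-0.106 to 0.058), lncRNA:CR45593 (-0.211 to 0.035), lncRNA:Hsromega (-0.023 to 0.014), lncRNA:let7C (-0.708 to 0.35), lncRNA:roX1 (-0.203 to 0.088), lncRNA:roX2 (-0.826 to 0.593), mino (-0.377 to 0.071) and robo2 (-0.089 to 0.185). Deviations of same-numbered libraries had a correlation of 0.0417 over genes, so no strong shared deviation was seen. With 2 libraries per line this cannot settle whether they were prepared in pairs, and the labels do not say. Apart from library size, the cause of these changes was not tested.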
